A study of Mus musculus with 12 samples.

Results

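The genes described here are 36 mouse genes of cholesterol and fatty acid synthesis, chosen by name: the enzymes that turn acetyl-CoA into cholesterol and into long-chain and unsaturated fatty acids, and the proteins that control them. Their probes were found by gene symbol or older synonym among the 45281 probes of an Illumina bead array. Of the 36 genes, 33 had a probe, with 56 probes in all, and 32 genes (46 probes) passed the detection filter among 10873 genes tested. Acat2, Hmgcs1 and Fdft1 were not analysed here. Acaca, which encodes acetyl-CoA carboxylase, had 1 probe that was detected on 0 of 12 arrays. The arrays measured total RNA of mouse embryo fibroblasts (MEFs) in 6 groups of 2 arrays each. TAp73-/- MEFs, which lack the transactivating form of the p53 relative p73, and TAp73+/+ MEFs were each kept untreated in 21% oxygen (0 h) or exposed to hypoxia, 1% oxygen, for 4 h or 8 h. Nothing in the labels says whether the 2 arrays of a group came from separate cultures, so p-values measure the spread between these arrays, which may be technical. Each genotype may be a single line, and then genotype and line cannot be told apart.

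Sterol synthesis starts with the mevalonate steps, passes through squalene and lanosterol, and ends with reductions and isomerisations that yield cholesterol. Fatty acid synthesis starts from cytosolic acetyl-CoA and continues with elongation and desaturation. The SREBP factors, encoded by Srebf1 and Srebf2, activate genes of both routes. SCAP escorts them out of the endoplasmic reticulum when sterols are low, and the INSIG proteins hold them back when sterols are high. Several of the enzymes, among them squalene epoxidase, lanosterol demethylase and the fatty acyl desaturases, use molecular oxygen.

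Promoter sequence was compared first, because SREBPs bind sterol regulatory elements beside NF-Y sites. RefSeq promoters (GRCm38.p6, 300 bases from 250 before to 50 after the start) were held for 29 of the member genes, 37 promoters in all, among 32851. The first letters searched for a sterol regulatory element, TCACNCCAC on either strand, were in 1.24% of all promoters and in 1 of the 37, that of Hmgcs1. The letters were then shortened to TCACNCCA after that result was seen. The shorter form was in 4.36% of all promoters and in 3 of the 37, those of Hmgcs1, Msmo1 and Srebf2. The NF-Y letters CCAAT were in 25 of the 37 promoters and in 37.4% of all. The core letters of a hypoxia response element, ACGTG, were in 10 of the 37 and in 19.6% of all. A match is a description of the letters and not evidence of binding. Msmo1 and Srebf2 are printed because they were tested on the array and hold the shorter sterol letters. Elovl6, Insig2, Insig1 and Idi1 are printed because they had large called changes in hypoxia, a choice made after their values were seen. For Insig2 the 5′-most of 3 promoters is given. Capitals mark TCACNCCA, CCAAT and ACGTG on either strand, and all sequences read 5′ to 3′ along the gene. The promoters lie at chr8:64733529-64733828 (minus strand, Msmo1), chr15:82147019-82147318 (plus, Srebf2), chr3:129532136-129532435 (plus, Elovl6), chr1:121332540-121332839 (minus, Insig2), chr5:28071162-28071461 (plus, Insig1) and chr13:8885356-8885655 (plus, Idi1).
Msmo1: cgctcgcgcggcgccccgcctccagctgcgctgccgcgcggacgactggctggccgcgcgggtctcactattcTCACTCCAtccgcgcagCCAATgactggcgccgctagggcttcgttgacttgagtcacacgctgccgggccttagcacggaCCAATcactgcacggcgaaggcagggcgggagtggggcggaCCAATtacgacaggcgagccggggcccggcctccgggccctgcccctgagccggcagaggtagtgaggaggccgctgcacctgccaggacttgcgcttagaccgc
Srebf2: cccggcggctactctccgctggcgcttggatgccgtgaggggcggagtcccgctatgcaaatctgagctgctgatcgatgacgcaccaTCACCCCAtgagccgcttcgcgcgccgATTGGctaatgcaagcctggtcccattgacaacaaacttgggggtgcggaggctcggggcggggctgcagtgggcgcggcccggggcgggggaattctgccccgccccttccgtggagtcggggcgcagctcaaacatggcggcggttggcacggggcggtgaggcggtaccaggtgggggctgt
Elovl6: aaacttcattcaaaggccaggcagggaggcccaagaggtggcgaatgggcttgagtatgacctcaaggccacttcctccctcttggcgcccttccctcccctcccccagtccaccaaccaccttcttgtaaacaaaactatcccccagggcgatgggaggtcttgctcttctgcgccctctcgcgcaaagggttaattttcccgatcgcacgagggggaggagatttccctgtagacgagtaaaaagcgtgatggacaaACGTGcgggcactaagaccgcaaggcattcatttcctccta
Insig2: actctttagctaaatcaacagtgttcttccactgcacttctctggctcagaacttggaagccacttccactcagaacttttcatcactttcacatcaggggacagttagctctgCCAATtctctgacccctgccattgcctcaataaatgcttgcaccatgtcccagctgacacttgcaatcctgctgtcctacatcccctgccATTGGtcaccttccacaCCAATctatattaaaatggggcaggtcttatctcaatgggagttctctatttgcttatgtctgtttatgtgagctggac
Insig1: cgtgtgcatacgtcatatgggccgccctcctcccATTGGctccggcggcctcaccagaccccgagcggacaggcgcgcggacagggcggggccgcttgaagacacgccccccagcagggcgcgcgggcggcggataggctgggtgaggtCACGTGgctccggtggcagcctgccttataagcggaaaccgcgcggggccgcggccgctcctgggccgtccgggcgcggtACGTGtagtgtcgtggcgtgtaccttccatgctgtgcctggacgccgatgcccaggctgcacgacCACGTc
Idi1: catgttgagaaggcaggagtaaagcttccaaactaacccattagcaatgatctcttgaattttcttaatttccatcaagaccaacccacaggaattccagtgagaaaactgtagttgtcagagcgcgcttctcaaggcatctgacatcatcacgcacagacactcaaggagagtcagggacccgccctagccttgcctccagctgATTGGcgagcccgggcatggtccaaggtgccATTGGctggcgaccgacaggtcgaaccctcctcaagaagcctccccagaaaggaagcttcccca
In Msmo1 the sterol letters start at base -177 from the start site, followed by CCAAT at -160, -96 and -55. In Srebf2 they start at -162, with 1 CCAAT match at -135 on the other strand. The Elovl6 promoter holds only ACGTG, at base 10 after the start. Insig1 holds 4 ACGTG matches, of which the 2 at -101 and -100 are the same palindrome read on both strands. The printed Insig2 promoter and that of Idi1 hold 3 and 2 CCAAT matches and neither of the other motifs. The Insig2 promoters that are not printed hold none of these letters.

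Signals are log2 values after background correction and quantile normalisation, and each gene is represented by its brightest probe, so levels are compared between samples and not between genes. Depth has no meaning for arrays, and the 2 arrays per group limit the precision. Mean raw signal ran from 429 to 608 per array and 42.8% to 44.5% of probes were detected. The Trp73 probe, whose place relative to the deleted exons the sources used here do not give, was detected on 5 of 6 TAp73-/- arrays and on 0 of 6 TAp73+/+ arrays, so it does not check the labels. Vegfa, a hypoxia target, rose by 1.57 and 1.42 at 4 h and 8 h in TAp73-/- cells and by 1.74 and 1.79 in TAp73+/+ cells, and Adm, Slc2a1 and Pdk1 rose in all 4 of these comparisons too. Fn1, Vim, Thy1 and Pdgfra, fibroblast markers, were detected on 12 of 12 arrays and Pdgfrb on 11. The defining fibroblast genes Col1a1, Col1a2, Lum and Dcn were detected on 0 of 12 and Col3a1 on 1. Of the epithelial markers, Krt18 and Cdh1 were detected on 12 of 12 arrays, Krt8 on 11, and Epcam and Krt14 on 0. The adipocyte markers Adipoq, Plin1, Fabp4 and Cidec were detected on 0 of 12. Of 10 fibroblast markers 5 passed the filter, and the summed level of the 10 moved with the groups: 6947 to 8464 untreated, 8035 to 9237 at 4 h and 9235 to 10943 at 8 h in TAp73-/- cells, and 3302 to 4387.5, 7890 to 8333 and 6840 to 7753 at the same times in TAp73+/+ cells. The summed level of 5 epithelial markers was 6613 to 8327 in TAp73-/- cells and 4535 to 5807 in TAp73+/+ cells. Krt18 was the brightest of them (log2 12.03 to 12.92), with Cdh1 next (8.27 to 9.06). Of 7 adipocyte markers Pparg was detected on 12 arrays and Lep on 8, and their summed level was 189 to 223, 256 to 292 and 316 to 370 over the 3 times in TAp73-/- cells and 239 to 269, 377 to 381 and 389 to 402.5 in TAp73+/+ cells. The part of these markers in the results was not tested, and in bulk RNA fewer cells of a type and less RNA per cell cannot be told apart.

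Probes of the same gene disagreed in a way that also moved with the groups. A score per array, the main axis of disagreement over 4571 genes with more than 1 probe, held 50.2% of that variance. It was -0.10 and -0.13 untreated, -0.36 and -0.37 at 4 h, then -0.24 and -0.09 at 8 h in TAp73-/- cells. In TAp73+/+ cells it was 0.59 and 0.39 untreated, -0.08 and -0.10 at 4 h, then 0.19 and 0.30 at 8 h. The untreated and 8 h TAp73+/+ arrays were the 4 with a score above 0, and each comparison is given with this score as a covariate too, although that widens the standard errors where score and group overlap.

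Hypoxia lowered more member genes than it raised, with Elovl6 falling most and Insig2 rising. In TAp73-/- cells 0 of 32 members rose and 2 fell at 4 h, and 1 rose and 5 fell at 8 h. Of all 10873 genes, 3.13% rose and 3.84% fell at 4 h, and 10.6% rose and 10.2% fell at 8 h. In TAp73+/+ cells 2 members rose and 11 fell at 4 h, and 1 rose and 9 fell at 8 h. The shares of all genes were 12% higher and 16% lower at 4 h, and 11.6% higher and 12.3% lower at 8 h. The median member changed by -0.07 and -0.14 at 4 h and 8 h in TAp73-/- cells and by -0.28 and -0.26 in TAp73+/+ cells, against -0.03, 0.00, -0.06 and -0.02 over all genes tested. Calls are limma tests with Benjamini-Hochberg adjustment over all 10873 genes at adjusted p below 0.05. The 4 h and 8 h comparisons of a genotype share its untreated arrays, while the 2 genotypes share none. At 4 h Hsd17b7 and Elovl6 fell in both genotypes, 2 of the 2 members that fell in TAp73-/- cells and 2 of 11 in TAp73+/+ cells. At 8 h Idi1, Tmem97 and Elovl6 fell in both, 3 of 5 and 3 of 9, and Insig2 rose in both. The overlap of calls over all genes is not given here, so these counts have no background beside them.

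**Figure D1:**
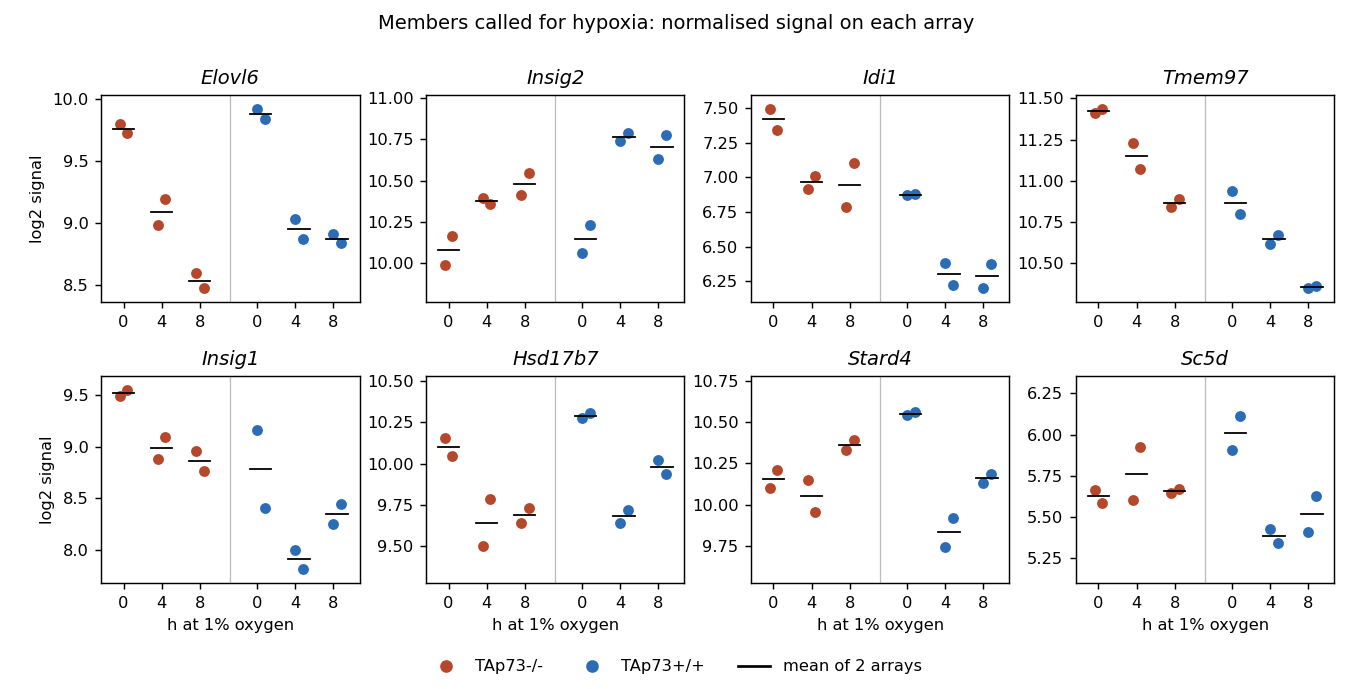
Normalised log2 signal (vertical) on each of the 12 arrays for 8 members called in hypoxia, with hours at 1% oxygen on the horizontal axis, TAp73-/- left and TAp73+/+ right, and a line for the mean of 2 arrays. Elovl6 drops below its untreated arrays on all hypoxic arrays of both genotypes and Insig2 sits above them, while Stard4 and Sc5d lie below them on the TAp73+/+ side.

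Among the mevalonate steps, Idi1, the isopentenyl diphosphate isomerase, had 7.49 and 7.34 untreated, 6.92 and 7.01 at 4 h, then 6.78 and 7.10 at 8 h in TAp73-/- cells. TAp73+/+ cells had 6.87 and 6.88 untreated, 6.38 and 6.23 at 4 h, then 6.20 and 6.37 at 8 h. Every hypoxic array was below the untreated arrays of its genotype. Idi1 fell by 0.48 ± 0.12 (SE) at 8 h in TAp73-/- cells (limma adjusted p = 0.0208), and by 0.57 ± 0.12 at 4 h (0.00708) and 0.59 ± 0.12 at 8 h (0.00712) in TAp73+/+ cells, while the 4 h change in TAp73-/- cells was -0.45 and not called. With the probe score in the fit Idi1 at 8 h in TAp73-/- cells was -0.43 and called. Its TAp73+/+ changes were then -0.03 at 4 h and -0.36 at 8 h, neither called. The other 4 tested genes of this stretch, Mvk, Pmvk, Mvd and Fdps, passed in no hypoxia comparison. The largest of their changes were Mvk at -0.40 and Pmvk at -0.40, both at 8 h in TAp73+/+ cells. With Idi1, all 5 changes were negative at both times in TAp73+/+ cells, with medians of -0.33 and -0.40. Of all 10873 genes 6336 were negative at 4 h and 5767 at 8 h there, and both times share the same untreated arrays. The second Fdps probe changed by -0.81 and -0.39 at 4 h and 8 h in TAp73+/+ cells, against -0.06 and -0.23 on the brightest.

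Of the 10 tested enzymes from squalene to cholesterol, Hsd17b7, the keto reductase of methyl group removal, had 10.15 and 10.05 untreated, 9.50 and 9.78 at 4 h, then 9.64 and 9.73 at 8 h in TAp73-/- cells. Its TAp73+/+ values were 10.28 and 10.30 untreated, 9.64 and 9.72 at 4 h, then 10.02 and 9.93 at 8 h. It fell by 0.46 ± 0.11 at 4 h and 0.42 ± 0.11 at 8 h in TAp73-/- cells (adjusted p = 0.0333 and 0.0219) and by 0.61 ± 0.11 at 4 h in TAp73+/+ cells (0.00273). Sc5d, a sterol desaturase, had 5.67 and 5.58, 5.60 and 5.93, and 5.65 and 5.67 over the 3 times in TAp73-/- cells, values that overlap. In TAp73+/+ cells it had 5.91 and 6.12 untreated, 5.43 and 5.34 at 4 h, then 5.41 and 5.63 at 8 h, with no overlap between untreated and hypoxic arrays. There it fell by 0.63 ± 0.13 at 4 h (0.00546) and 0.49 ± 0.13 at 8 h (0.0196). Dhcr7, the last reductase of the route, fell by 0.35 ± 0.09 at 4 h in TAp73+/+ cells (0.0138), where the arrays read 7.17 and 7.16 at 4 h against 7.57 and 7.46 untreated. Lss, lanosterol synthase, fell by 0.50 ± 0.14 at 8 h in TAp73+/+ cells (0.0271), with 8.70 and 8.91 at 8 h against 9.15 and 9.47 untreated.

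Nsdhl, a sterol dehydrogenase of the same methyl removal, moved the other way at 4 h. It had 6.90 and 6.94 at 4 h against 5.89 and 6.12 untreated in TAp73+/+ cells and rose by 0.92 ± 0.16 (adjusted p = 0.00256). With the probe score in the fit Nsdhl changed by 0.01 there, without a call. Its 4 h change in TAp73-/- cells was 0.42 ± 0.16, with 7.30 and 6.90 at 4 h against 6.71 and 6.65 untreated, and was not called. Of its 3 other probes, 2 changed by 1.17 and 1.07 and 1 by -0.43 at 4 h in TAp73+/+ cells. Sqle, squalene epoxidase, was not called in hypoxia on its brightest probe (0.09 at 4 h and -0.04 at 8 h in TAp73+/+ cells), but its second probe changed by 1.86 and 0.98 there. With the mean of its probes Sqle changed by 0.47 at 8 h in TAp73+/+ cells, which passed the test (adjusted p = 0.0142). Tm7sf2, a sterol reductase, and Msmo1, whose promoter is printed above, passed in none of the 12 comparisons. The largest changes of Tm7sf2 and Msmo1 in hypoxia were -0.35 at 4 h in TAp73-/- cells and -0.43 at 8 h in TAp73+/+ cells.

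The regulators split. Insig2, which encodes an endoplasmic reticulum protein that retains SCAP, had 9.99 and 10.16 untreated, 10.40 and 10.36 at 4 h, then 10.41 and 10.54 at 8 h in TAp73-/- cells. TAp73+/+ cells had 10.06 and 10.23 untreated, 10.74 and 10.79 at 4 h, then 10.63 and 10.78 at 8 h. All hypoxic arrays were above the untreated arrays of their genotype. Insig2 rose by 0.40 ± 0.11 at 8 h in TAp73-/- cells (adjusted p = 0.0233), and by 0.62 ± 0.11 at 4 h and 0.56 ± 0.11 at 8 h in TAp73+/+ cells (0.0023 and 0.00463). Its second probe changed the same way, by 0.73 and 0.75 at 4 h and 8 h in TAp73-/- cells and by 1.30 and 0.81 in TAp73+/+ cells.

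Insig1, the related gene that SREBPs themselves induce, fell on its brightest probe. It had 9.49 and 9.55 untreated, 8.88 and 9.09 at 4 h, then 8.96 and 8.77 at 8 h in TAp73-/- cells, and fell by 0.65 ± 0.20 at 8 h (adjusted p = 0.0412). In TAp73+/+ cells it had 9.16 and 8.41 untreated, 8.01 and 7.81 at 4 h, then 8.26 and 8.45 at 8 h. The untreated pair was far apart, and the 8 h arrays overlapped it. It fell by 0.88 ± 0.20 at 4 h there (0.00927), by 0.50 without the first untreated TAp73+/+ array and by 1.25 without the second. The other 2 Insig1 probes changed by 0.09 and -0.06 in the same comparison, and by -0.14 and -0.07 at 8 h in TAp73-/- cells.

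Stard4, a cholesterol transfer protein, had 10.54 and 10.56 untreated, 9.74 and 9.92 at 4 h, then 10.13 and 10.19 at 8 h in TAp73+/+ cells and fell by 0.72 ± 0.10 (adjusted p = 0.00088) and 0.39 ± 0.10 (0.0205). In TAp73-/- cells it had 10.10 and 10.21 untreated, 10.15 and 9.96 at 4 h, then 10.33 and 10.39 at 8 h and was not called. Tmem97, a sterol-regulated membrane protein, had 11.41 and 11.43, 11.23 and 11.07, and 10.84 and 10.89 over the 3 times in TAp73-/- cells, and 10.94 and 10.80, 10.62 and 10.67, and 10.35 and 10.36 in TAp73+/+ cells. It fell by 0.56 ± 0.10 (0.00258) and 0.51 ± 0.10 (0.00372) at 8 h in the 2 genotypes. Srebf1 fell by 0.37 ± 0.11 at 4 h in TAp73+/+ cells (0.0265), where its arrays read 6.80 and 6.94 at 4 h against 7.21 and 7.27 untreated. Srebf2 and Scap passed in no hypoxia comparison, with Srebf2 at -0.41 at 4 h in TAp73-/- cells. The second Scap probe changed by -1.04 and -0.34 at 4 h and 8 h in TAp73+/+ cells, against -0.06 and 0.01 on the brightest.

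**Figure D2:**
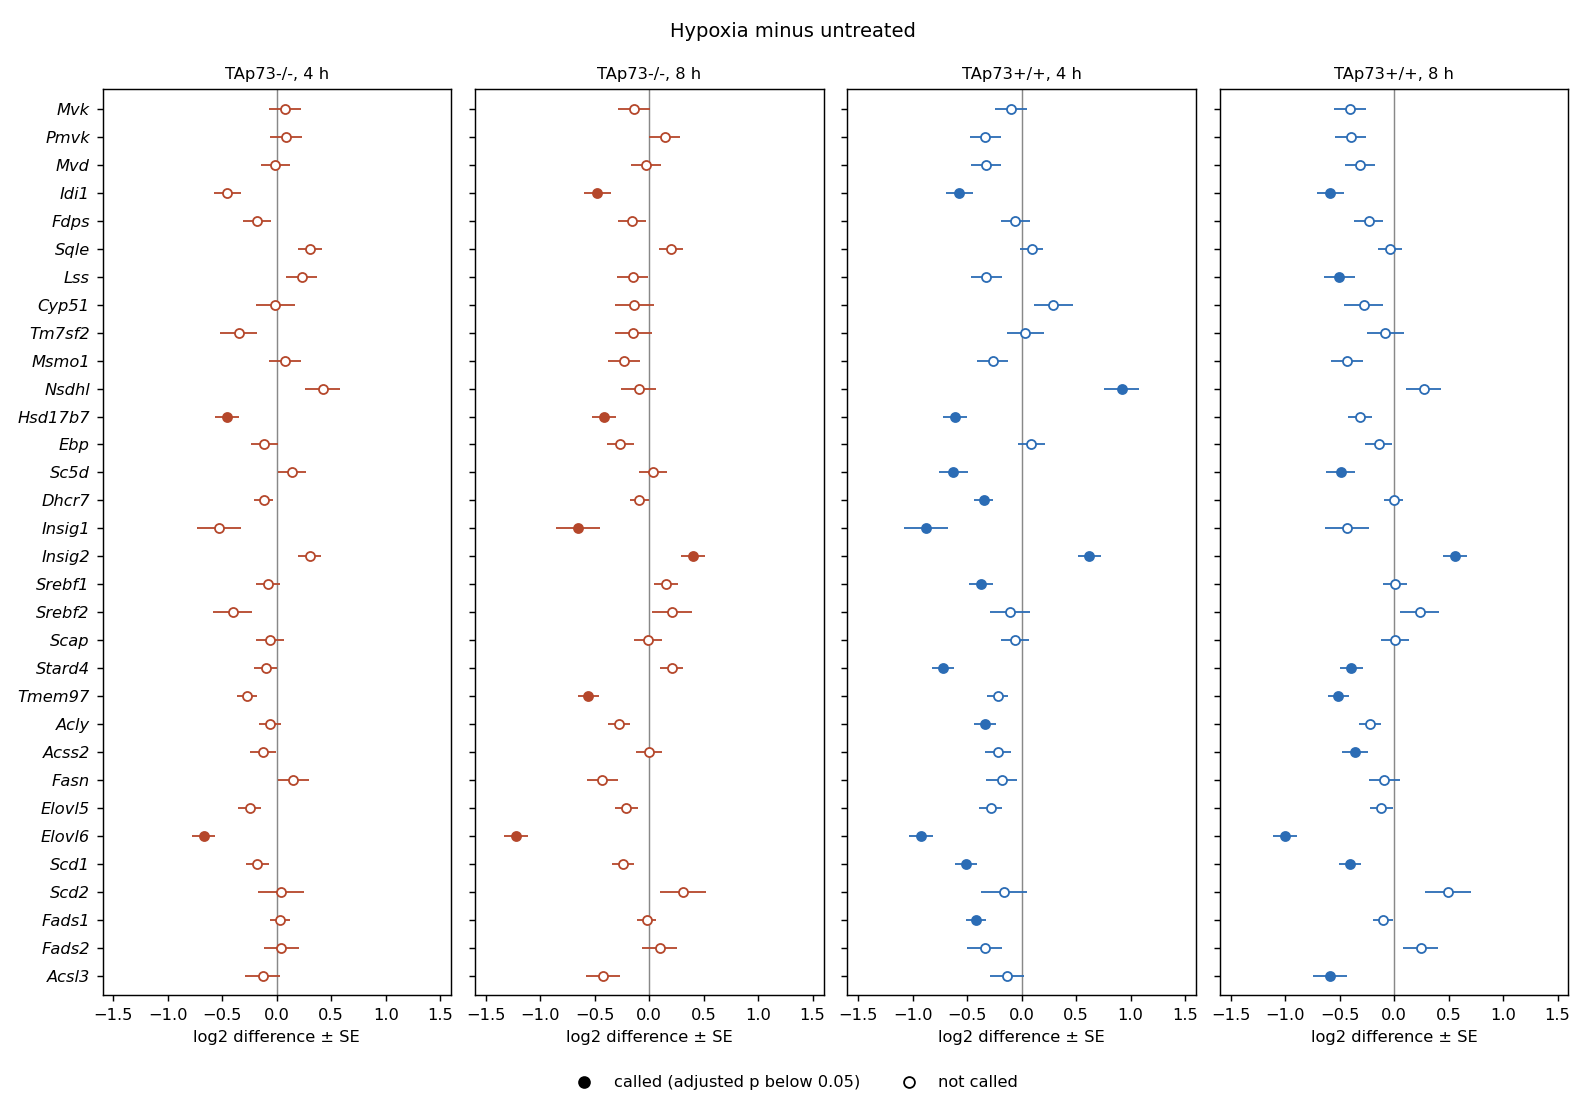
Hypoxia minus untreated log2 difference with its SE (horizontal) for the 32 tested members, listed down the page, in 4 panels, TAp73-/- at 4 h and 8 h and TAp73+/+ at 4 h and 8 h, with filled points for called changes. Elovl6 is filled and furthest left in all 4 panels, and more points are filled in the TAp73+/+ panels.

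In acetyl-CoA supply and fatty acid synthesis, Acly, ATP citrate lyase, fell by 0.34 ± 0.10 at 4 h in TAp73+/+ cells (adjusted p = 0.0304), with 12.62 and 12.50 at 4 h against 12.96 and 12.83 untreated. Acss2, which makes acetyl-CoA from acetate, fell by 0.36 ± 0.12 at 8 h in TAp73+/+ cells (0.0476), with 8.69 and 8.82 at 8 h against 8.98 and 9.26 untreated. Fasn, fatty acid synthase, was not called against untreated cells, with -0.43 at 8 h in TAp73-/- cells. It fell by 0.58 ± 0.14 between 4 h and 8 h in TAp73-/- cells (0.0273), where the arrays read 5.45 and 5.32 at 8 h against 5.93 and 6.01 at 4 h.

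Elovl6, which elongates palmitate, had the largest fall of the members in each of the 4 hypoxia comparisons. It had 9.80 and 9.72 untreated, 8.98 and 9.19 at 4 h, then 8.60 and 8.48 at 8 h in TAp73-/- cells. TAp73+/+ cells had 9.92 and 9.84 untreated, 9.04 and 8.87 at 4 h, then 8.91 and 8.84 at 8 h. No hypoxic array reached an untreated one. It fell by 0.67 ± 0.11 at 4 h (adjusted p = 0.00511) and 1.22 ± 0.11 at 8 h (4.18e-05) in TAp73-/- cells, and by 0.93 ± 0.11 (0.000254) and 1.00 ± 0.11 (0.000134) in TAp73+/+ cells. The 8 h level was 0.429 times the untreated level in TAp73-/- cells and 0.499 times in TAp73+/+ cells. A second, dimmer probe changed by -0.05 and -1.09 at 4 h and 8 h in TAp73-/- cells and by -1.09 and -1.10 in TAp73+/+ cells.

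Scd1, the stearoyl-CoA desaturase, had 10.32 and 10.15 untreated, 9.63 and 9.82 at 4 h, then 9.84 and 9.81 at 8 h in TAp73+/+ cells and fell by 0.51 ± 0.10 (adjusted p = 0.00475) and 0.41 ± 0.10 (0.0154). Fads1, which desaturates polyunsaturated fatty acids, fell by 0.42 ± 0.09 at 4 h in TAp73+/+ cells (0.00697), with 11.05 and 11.05 at 4 h against 11.47 and 11.47 untreated. Acsl3, an acyl-CoA synthetase, fell by 0.59 ± 0.16 at 8 h in TAp73+/+ cells (0.021), with 8.41 and 8.42 at 8 h against 8.91 and 9.09 untreated. In TAp73-/- cells Scd1 changed by -0.24, Fads1 by -0.03 and Acsl3 by -0.42 at 8 h, none of them called. Scd2, Fads2 and Elovl5 passed in no comparison with untreated cells.

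Between 4 h and 8 h, 0 members rose and 2 fell in TAp73-/- cells, where 6.75% of all genes rose and 3.84% fell. These were Fasn, given above, and Elovl6, lower by 0.55 ± 0.11 (adjusted p = 0.0142). In TAp73+/+ cells 4 members rose and 1 fell, against 8.62% higher and 5.22% lower over all genes. Dhcr7 rose by 0.34 ± 0.09 (0.0266), Srebf1 by 0.38 ± 0.11 (0.0407), Fads1 by 0.32 ± 0.09 (0.0421) and Fads2 by 0.58 ± 0.16 (0.0358). Fads2 had 5.69 and 5.71 at 8 h against 5.27 and 4.97 at 4 h. Nsdhl, which had risen at 4 h, fell by 0.65 ± 0.16 (0.0259), with 6.47 and 6.08 at 8 h against 6.90 and 6.94 at 4 h.

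The hypoxia counts depended on single arrays and on the probe score. Leaving out 1 array of a pair also widened the median standard error of all genes. In comparisons of that group with another, of hypoxia or genotype, it went from 0.13 to between 0.14 and 0.16. That lowers calls for all genes and not only for members. In TAp73-/- cells the 4 h count was 1 without either untreated array, the first 4 h array or any hypoxic TAp73+/+ array. Their 8 h count was 2 without the first untreated or the first 8 h array and 3 without the second 8 h array. Between 4 h and 8 h it was 0 without the second 4 h or second 8 h array, 1 without the first 8 h array and 6 without the first 4 h array. In TAp73+/+ cells 7 were called at 4 h without the second 4 h array, and at 8 h there were 3 and 5 without the first and second 8 h arrays and 6 without the second untreated array. Between 4 h and 8 h in TAp73+/+ cells the count was 0 without either 4 h array or the second 8 h array, and 8 without either untreated array. Adding that score to the fit left 0 and 7 members called at 4 h and 8 h in TAp73-/- cells and 0 and 3 in TAp73+/+ cells, and 0 between 4 h and 8 h in either. The median member change in those fits was -0.08, -0.17, -0.28 and -0.30, close to the values without the score. Elovl6 at 4 h was -0.68 and -0.94 without a call in either genotype (adjusted p = 0.166 and 0.482). At 4 h in TAp73+/+ cells Hsd17b7, Sc5d, Stard4, Insig2 and Fads1 were -0.63, -0.71, -0.69, 0.56 and -0.37 with the score. Idi1, Nsdhl, Dhcr7, Srebf1, Acly and Scd1 shrank there to -0.03, 0.01, -0.17, -0.19, -0.09 and -0.24. Insig1 changed sign there, to 0.27. The median standard error of all genes was 0.13 without the score and ran from 0.12 to 0.37 with it. Over all genes that fit called 84, 2330, 16 and 771 in the 4 comparisons with untreated cells. Its 7 at 8 h in TAp73-/- cells included all 6 called without it, and Elovl6 was again called in TAp73+/+ cells at 8 h (-1.01, adjusted p = 0.0105), beside Pmvk and Msmo1.

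TAp73-/- cells had higher signals than TAp73+/+ cells for the desaturases Scd1, Scd2, Fads1 and Fads2, and for Srebf1, Fdps and Ebp, at most times. Of the 32 members 10 were higher and 5 lower in untreated cells, against 18% and 20.4% of all genes. At 4 h 13 were higher and 2 lower, against 18.5% and 18% of all genes, and at 8 h 12 were higher and 2 lower, against 18.2% and 18.2%. Averaged over the 3 times, 15 were higher and 8 lower, where 28.3% of all genes were higher and 31.4% lower. The median member difference was 0.11 untreated, 0.20 at 4 h, 0.23 at 8 h and 0.21 on average, against -0.03, -0.03, -0.01 and -0.03 over all genes. The untreated median changed sign, to -0.03, without the first untreated TAp73+/+ array and was 0.22 without the second, and the average was 0.14 and 0.26 in those fits. With the probe score in the fit the 4 medians were -0.02, 0.10, 0.11 and 0.03.

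**Figure D3:**
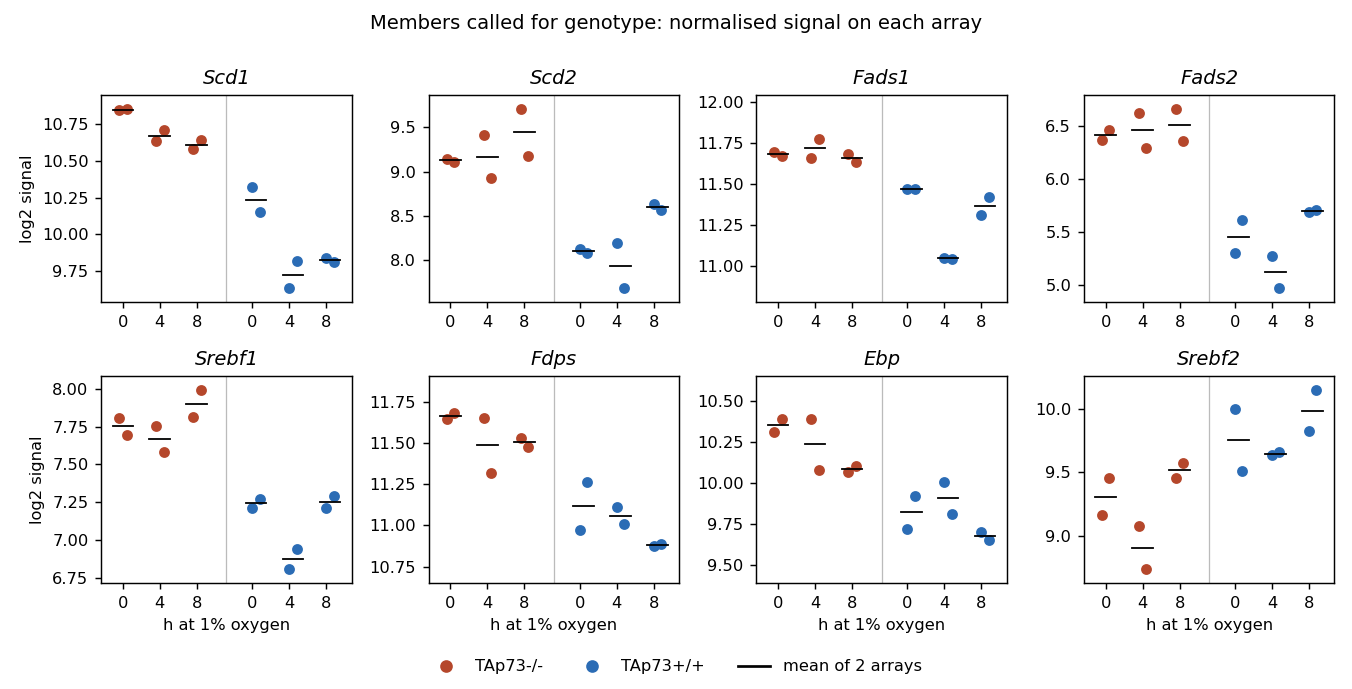
Normalised log2 signal (vertical) on each of the 12 arrays for 8 members called between genotypes, with hours at 1% oxygen on the horizontal axis, TAp73-/- left and TAp73+/+ right, and a line for the mean of 2 arrays. All 6 TAp73-/- arrays lie above all 6 TAp73+/+ arrays for Scd1, Scd2, Fads1, Fads2, Srebf1, Fdps and Ebp, and Srebf2 shows the opposite direction with overlap.

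For the desaturases Scd1, Scd2, Fads1 and Fads2 the genotypes did not overlap on any array. Scd1 had 10.84 and 10.85 untreated, 10.63 and 10.71 at 4 h, then 10.58 and 10.64 at 8 h in TAp73-/- cells, all above the TAp73+/+ values given earlier. It was higher by 0.61 ± 0.10 untreated (adjusted p = 0.000947), 0.94 ± 0.10 at 4 h (5.58e-05) and 0.78 ± 0.10 at 8 h (0.0002). Scd2, its close relative, had 9.15 and 9.11, 9.42 and 8.92, and 9.71 and 9.18 over the 3 times in TAp73-/- cells and 8.13 and 8.08, 8.20 and 7.68, and 8.63 and 8.57 in TAp73+/+ cells. Its differences were 1.03 ± 0.21 (0.00325), 1.23 ± 0.21 (0.0013) and 0.84 ± 0.21 (0.00996). Scd1 and Scd2 are similar genes whose probes may bind each other's RNA, so their values are less certain.

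Fads2, the first desaturase of polyunsaturated fatty acid synthesis, had 6.38 and 6.46, 6.63 and 6.30, and 6.67 and 6.36 over the 3 times in TAp73-/- cells. TAp73+/+ cells had 5.31 and 5.61, 5.27 and 4.97, and 5.69 and 5.71. The differences were 0.96 ± 0.16 (adjusted p = 0.000949), 1.34 ± 0.16 (0.000112) and 0.81 ± 0.16 (0.00269), and 0.34, 0.54 and 0.17 on its second probe. Fads1 had 11.70 and 11.67, 11.66 and 11.78, and 11.68 and 11.63 in TAp73-/- cells, against 11.47 and 11.47, 11.05 and 11.05, and 11.31 and 11.42 in TAp73+/+ cells. It was higher by 0.67 ± 0.09 at 4 h (0.0003) and 0.29 ± 0.09 at 8 h (0.0281), and by 0.21 in untreated cells, which was not called. Elovl6 was lower by 0.34 ± 0.11 at 8 h (0.032), but its second probe differed by 0.34 there in the other direction. Averaged over the times, Elovl5, an elongase of polyunsaturated chains, was lower by 0.16 ± 0.06 (0.0448).

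Oxygen-using enzymes among the members were described as a group of 8: Sqle, Cyp51, Msmo1, Sc5d, Scd1, Scd2, Fads1 and Fads2. Related genes outside the members are left out, such as Fads3, lower at all 3 times, and Ch25h, higher at all 3, both given below. All 8 differences were positive at 4 h, at 8 h and on average, with medians of 0.52, 0.49 and 0.41. Of all 10873 genes 5099, 5306 and 5122 were positive. Each time 6 of 8 were called higher and 0 lower, where 18.5%, 18.2% and 28.3% of all genes were higher and 18%, 18.2% and 31.4% lower. The average includes the arrays of 4 h and 8 h. In untreated cells 3 of the 8 were higher and 1 lower, where 18% and 20.4% of all genes were. In hypoxia against untreated cells 0 and 0 of the 8 passed at 4 h and 8 h in TAp73-/- cells, and 0 rose and 3 fell at 4 h and 2 fell at 8 h in TAp73+/+ cells, where 16% and 12.3% of all genes fell. Of these, Sqle was higher in TAp73-/- cells by 0.34 ± 0.11 at 4 h (adjusted p = 0.0314) and 0.37 ± 0.11 at 8 h (0.0238), with 10.77 and 10.67 against 10.39 and 10.37 at 4 h. Cyp51, the lanosterol demethylase, was higher by 0.62 ± 0.18 at 8 h (0.0202), with 8.60 and 8.47 against 8.00 and 7.82. With the probe score in the fit Cyp51 had the opposite sign at 4 h (-0.39), at 8 h (-0.24) and on average (-0.47), without a call. Msmo1 was then negative too (-0.02, -0.35 and -0.40), as was Sc5d on average (-0.02), so not all 8 stayed positive.

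**Figure D4:**
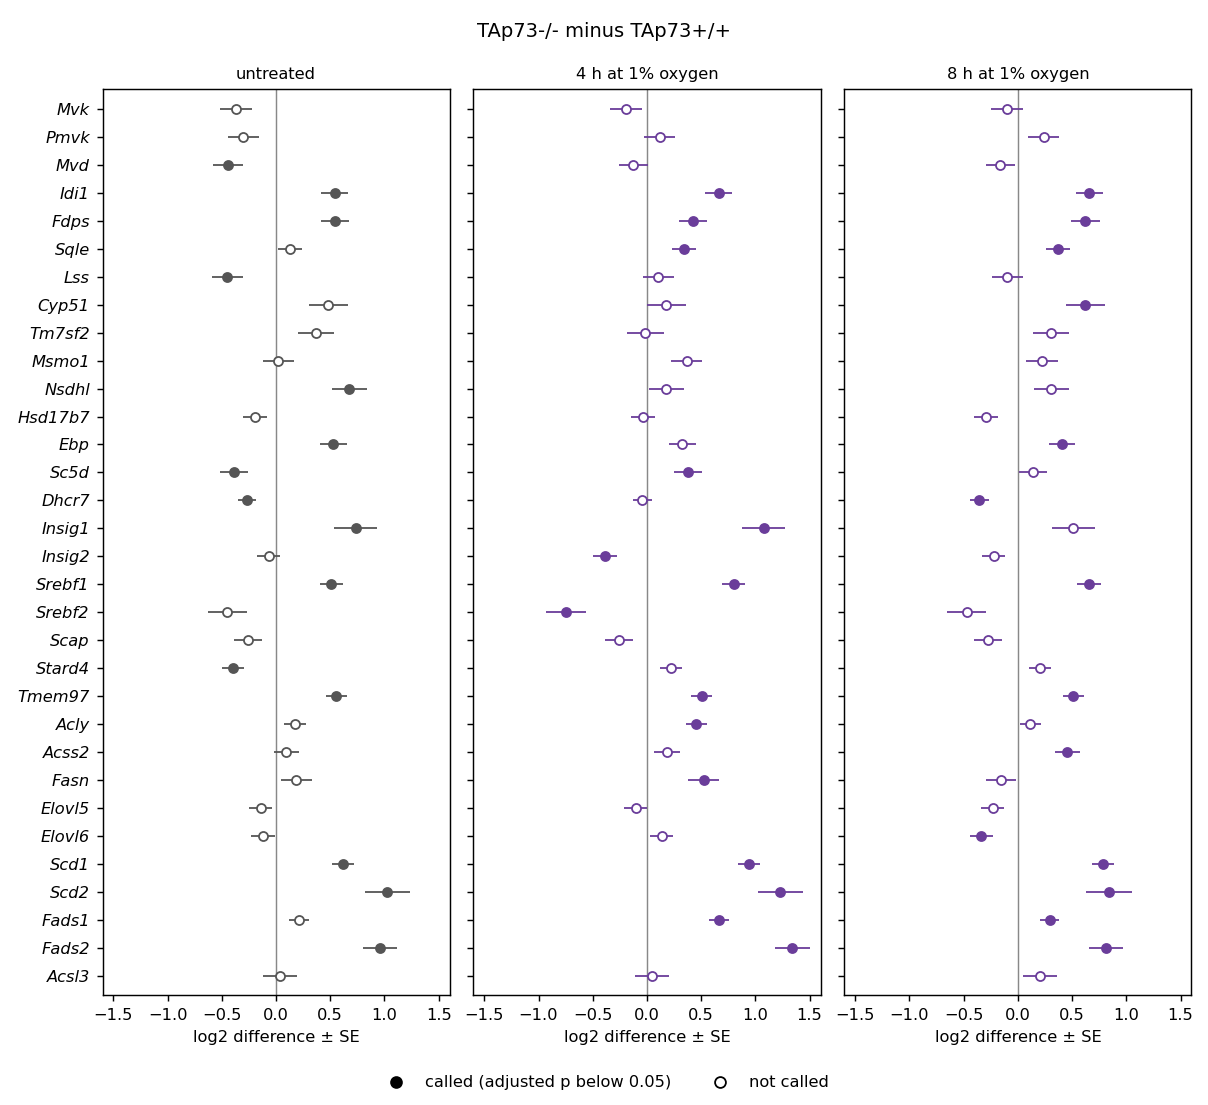
TAp73-/- minus TAp73+/+ log2 difference with its SE (horizontal) for the 32 tested members, listed down the page, in untreated cells, at 4 h and at 8 h of hypoxia, with filled points for called differences. The desaturases Scd1, Scd2, Fads1 and Fads2 near the foot of the panels, and Srebf1, Tmem97, Idi1 and Fdps, lie right of 0 in all 3 panels.

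Among the mevalonate and sterol enzymes, Fdps, farnesyl diphosphate synthase, had 11.65 and 11.68, 11.65 and 11.32, and 11.53 and 11.48 over the 3 times in TAp73-/- cells and 10.97 and 11.26, 11.11 and 11.01, and 10.87 and 10.89 in TAp73+/+ cells. It was higher by 0.55 ± 0.13 (adjusted p = 0.00746), 0.43 ± 0.13 (0.0257) and 0.62 ± 0.13 (0.00398), while its second probe differed by -0.51, 0.20 and -0.28. Idi1 was higher by 0.54 ± 0.12 (0.00616), 0.66 ± 0.12 (0.00229) and 0.66 ± 0.12 (0.00227). Ebp, the sterol isomerase, was higher by 0.53 ± 0.12 untreated (0.00699) and 0.41 ± 0.12 at 8 h (0.0256), with 10.31 and 10.39 against 9.72 and 9.92 in untreated cells and 10.07 and 10.10 against 9.70 and 9.65 at 8 h. Nsdhl was higher by 0.67 ± 0.16 in untreated cells (0.00795), where its 3 other probes differed by 0.95, 0.01 and 0.80.

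Some sterol enzymes were lower in TAp73-/- cells. Mvd, the mevalonate diphosphate decarboxylase, was lower by 0.44 in untreated cells (log2 difference -0.44 ± 0.14, adjusted p = 0.0252), with 7.52 and 7.68 against 7.89 and 8.20. Lss was also lower there (-0.45 ± 0.14, 0.0284), with 8.86 and 8.86 against 9.15 and 9.47. Dhcr7 was lower in untreated cells (-0.27 ± 0.09, 0.0319) and at 8 h (-0.36 ± 0.09, 0.00912), with 7.16 and 7.14 against 7.49 and 7.53 at 8 h. Sc5d was lower in untreated cells (-0.38 ± 0.13, 0.0366) and higher at 4 h (0.38 ± 0.13, 0.0404). On average Mvk, mevalonate kinase (-0.22 ± 0.09, 0.0448), and Hsd17b7 (-0.17 ± 0.06, 0.0347) were lower too, with overlap between the genotypes.

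Srebf1 had 7.81 and 7.69, 7.75 and 7.59, and 7.81 and 8.00 over the 3 times in TAp73-/- cells, above 7.21 and 7.27, 6.80 and 6.94, and 7.21 and 7.29 in TAp73+/+ cells. It was higher by 0.51 ± 0.11 (adjusted p = 0.00399), 0.80 ± 0.11 (0.000278) and 0.65 ± 0.11 (0.000986). Srebf2 ran the other way, with 9.16 and 9.45, 9.07 and 8.73, and 9.46 and 9.57 in TAp73-/- cells and 10.00 and 9.51, 9.64 and 9.66, and 9.83 and 10.15 in TAp73+/+ cells. It was lower at 4 h (-0.75 ± 0.18, 0.00897), and on average (-0.56 ± 0.10, 0.000899). Its second probe differed by -0.74, -0.55 and -0.68 over the times. Scap, the escort protein, was lower on average (-0.27 ± 0.07, 0.00989), and its second probe differed by -1.33, -0.55 and -1.23 over the times.

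Insig1 was higher by 0.73 ± 0.20 in untreated cells (adjusted p = 0.0151) and 1.08 ± 0.20 at 4 h (0.00224), and its 2 other probes differed by 0.59 and 0.57 and by 0.46 and 0.80. Without the second untreated TAp73+/+ array the untreated difference was 0.35 and not called. Insig2 was lower at 4 h (-0.39 ± 0.11, 0.0171). Tmem97 was higher by 0.56 ± 0.10 (0.0012), 0.50 ± 0.10 (0.00236) and 0.51 ± 0.10 (0.00209) at the 3 times. Stard4 was lower in untreated cells (-0.40 ± 0.10, 0.0123), with 10.10 and 10.21 against 10.54 and 10.56. Of the acetyl-CoA and fatty acid genes, Acly (0.46 ± 0.10, 0.00561) and Fasn (0.52 ± 0.14, 0.0152) were higher at 4 h and Acss2 at 8 h (0.46 ± 0.12, 0.0121).

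The count was 9 in untreated cells without the first untreated TAp73-/- array. At 4 h it was 9 without the second TAp73+/+ array of that time. At 8 h it was 7 without the second array of either genotype and 9 without the first, and the averaged comparison gave 19 to 23 calls over the arrays left out. Adding the probe score to the fit left 0, 7, 1 and 2 members called untreated, at 4 h, at 8 h and on average, where 173, 1364, 556 and 526 of all genes were called. Scd1 was called higher in the last 3 of these (1.07, 0.97 and 0.98), and Scd2 differed by 1.02 at 4 h without a call (adjusted p = 0.101). In untreated cells with the score Scd1, Srebf1 and Fads1 differed by 0.89, 0.70 and 0.27. Scd2, Fads2, Ebp and Fdps differed there by less than without it, 0.57, 0.17, 0.23 and 0.04. At 8 h with the score Srebf1 and Fads1 differed by 0.79 and 0.33. Scd2, Fads2, Fdps and Ebp differed then by less than without it, 0.53, 0.27, 0.27 and 0.20. None of these untreated and 8 h differences was called.

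**Figure D5:**
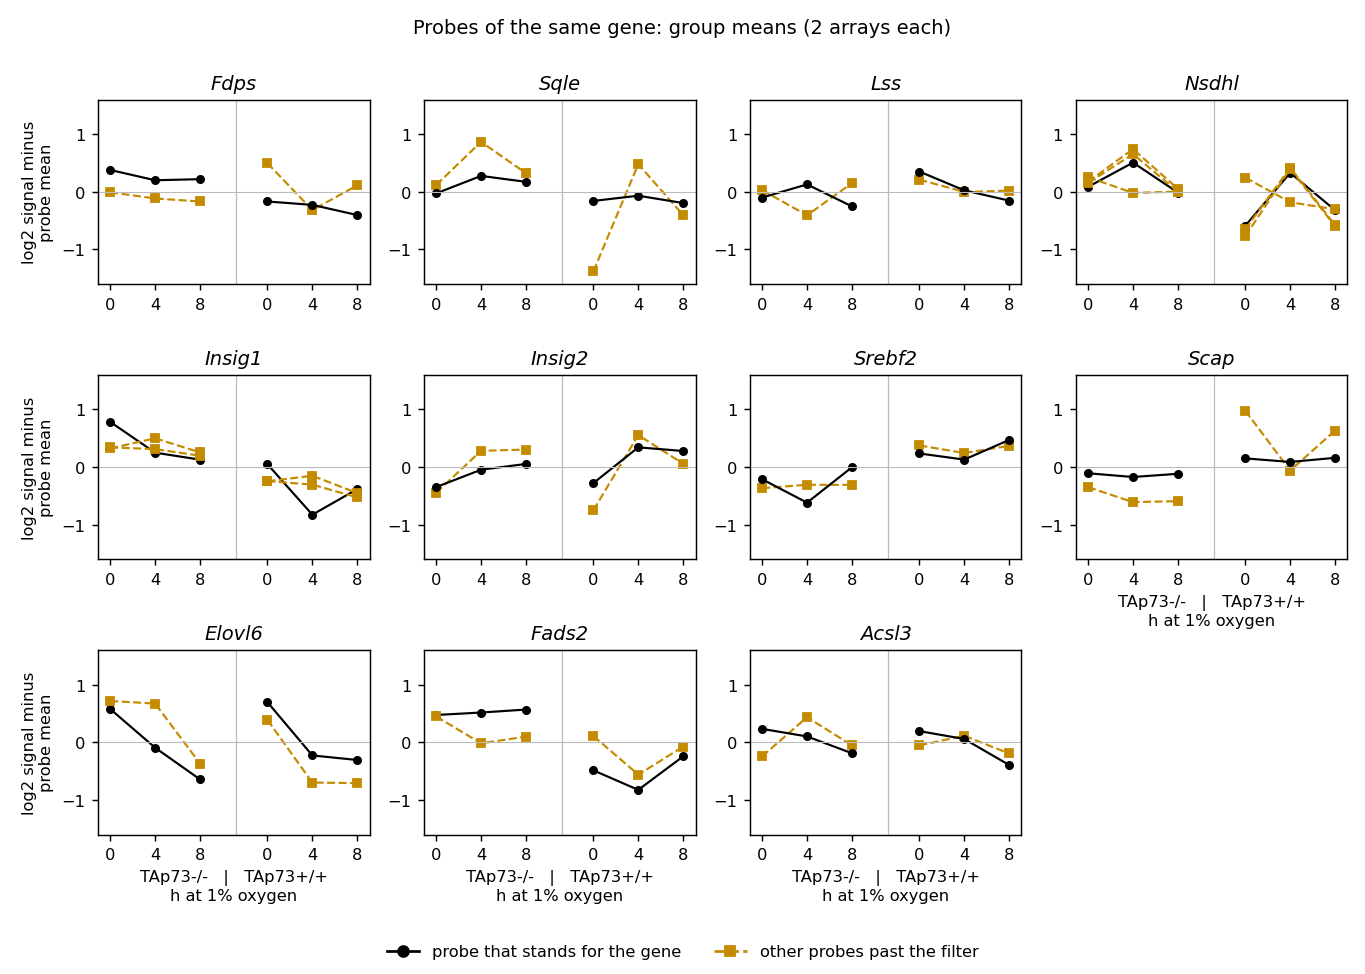
Group means of log2 signal minus each probe's own mean (vertical) for the 11 members with more than 1 probe past the filter, with hours at 1% oxygen on the horizontal axis, TAp73-/- left and TAp73+/+ right. Solid black lines are the probe that stands for the gene and dashed lines its other probes, which lie furthest apart in untreated TAp73+/+ cells for Sqle, Fdps and Scap.

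Averaged over the 3 times, 7 members had all 6 TAp73-/- arrays above all 6 TAp73+/+ arrays: Scd2 (1.03 ± 0.12, adjusted p = 3.3e-05), Fads2 (1.04 ± 0.09, 3.92e-06), Scd1 (0.78 ± 0.06, 1.11e-06), Srebf1 (0.65 ± 0.06, 7.04e-06), Fdps (0.53 ± 0.08, 0.000129), Ebp (0.42 ± 0.07, 0.000474) and Fads1 (0.39 ± 0.05, 9.04e-05). Of all 10873 genes tested 1154 were fully above and 1179 fully below, beside 7 above and 0 below of the 32 members. Another 8 members were higher on average with overlap: Insig1 by 0.77, Idi1 by 0.62, Tmem97 by 0.52, Cyp51 by 0.43, Nsdhl by 0.39, Sqle by 0.28, and Acly and Acss2 by 0.25 each. Besides those given above, Mvd (-0.24), Insig2 (-0.23) and Dhcr7 (-0.22) were lower on average. The second Insig2 probe differed by 0.09, and with the mean of its probes Insig2 was not called (-0.07, adjusted p = 0.4).

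Whether the hypoxia response of a member differed between genotypes was tested directly. At 4 h 0 of 32 members passed where 0.304% of all genes passed in limma. At 8 h 0 members passed, where 0.478% of all genes passed. An unadjusted limma p below 0.05 was reached at 4 h by 5 of 32 members and by 1831 of all 10873 genes. At 8 h it was reached by 3 members and by 1623 of all genes. The lowest adjusted p-values belonged to Sc5d at 4 h (0.77 ± 0.18, adjusted p = 0.0773) and to Stard4, at 0.62 ± 0.15 at 4 h (0.0773) and 0.60 ± 0.15 at 8 h (0.102). A positive value means that the change was less negative or more positive in TAp73-/- cells, and the larger number of calls in TAp73+/+ cells is not shown to be a difference between genotypes. Without background subtraction, and with the submitters' processed values, Stard4 passed at both times.

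Of 60 other genes of sterol, fatty acid and glycerolipid metabolism, 37 were tested, 13 sterol genes and 24 others. In hypoxia 0 sterol genes rose and 2 fell at 4 h and 1 rose and 2 fell at 8 h in TAp73-/- cells, and in TAp73+/+ cells 1 rose and 2 fell, and 2 rose and 2 fell. Of the 24 others, 1 rose and 2 fell at 4 h and 3 rose and 4 fell at 8 h in TAp73-/- cells, and 4 rose and 4 fell, and 4 rose and 3 fell in TAp73+/+ cells. These counts stand beside 3.13% higher and 3.84% lower of all genes at 4 h and 10.6% and 10.2% at 8 h in TAp73-/- cells, and 12% and 16%, then 11.6% and 12.3% in TAp73+/+ cells. Cyb5b, an outer mitochondrial membrane cytochrome, fell by 0.39 ± 0.10 at 4 h and 0.78 ± 0.10 at 8 h in TAp73-/- cells and by 0.65 ± 0.10 and 1.01 ± 0.10 in TAp73+/+ cells. Npc1, a lysosomal cholesterol exporter, rose by 0.74 ± 0.10 and 0.52 ± 0.10 at 8 h in the 2 genotypes. Mcat, the mitochondrial malonyl transferase, fell by 0.73 ± 0.10 and 0.64 ± 0.10 at 8 h, and Acsl5, another acyl-CoA synthetase, by 0.57 ± 0.09 and 0.64 ± 0.09.

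Further genes of these lists were also called. Oxsm, a mitochondrial fatty acid synthase enzyme, rose at least 1.24-fold at 8 h in TAp73-/- cells (adjusted p = 0.002), where it was detected on 2 arrays at 8 h and 0 untreated, a bound set against the lowest detected signal of the untreated arrays. It was also called higher at 4 h in TAp73+/+ cells (0.0284), but was detected on only 1 array there and 0 untreated, so no fold is given. Hacd1 rose by 0.48 ± 0.11 and 0.76 ± 0.11, and Tecr, the enoyl reductase of elongation, by 0.42 ± 0.12 and 0.53 ± 0.12, at 4 h and 8 h in TAp73+/+ cells. Hacd1 was also called higher at 8 h in TAp73-/- cells, with 10.57 and 10.59 against 10.32 and 10.17 untreated. Cyp27a1, a sterol hydroxylase, fell at 4 h by 0.50 ± 0.12 in TAp73-/- cells and 0.42 ± 0.12 in TAp73+/+ cells. Cyp27a1 was also called lower at 8 h in TAp73+/+ cells, and higher at 8 h than at 4 h in TAp73-/- cells. In TAp73-/- cells Mid1ip1 and the elongase Elovl4 fell at 4 h by 0.53 ± 0.12 and 0.48 ± 0.12, and Mid1ip1 was called lower at 8 h too. Acat1, detected on 0 arrays at 8 h and 2 untreated in TAp73-/- cells, was at least 1.43-fold lower at 8 h (adjusted p = 0.0487). Slc25a1, the citrate carrier, fell by 0.42 ± 0.11 at 4 h in TAp73+/+ cells and rose by 0.48 ± 0.11 between 4 h and 8 h.

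Lpin1, a phosphatidate phosphatase of glycerolipid synthesis, had 6.11 and 6.18 untreated, 6.85 and 6.92 at 4 h, then 7.54 and 7.41 at 8 h in TAp73-/- cells. TAp73+/+ cells had 5.68 and 5.85, 6.20 and 6.01, and 6.15 and 6.23. It rose by 0.74 ± 0.11 and 1.32 ± 0.11 in TAp73-/- cells and by 0.34 ± 0.11 and 0.42 ± 0.11 in TAp73+/+ cells. The 8 h responses differed by 0.90 ± 0.15 (adjusted p = 0.0392), and by 0.38 without the second 8 h TAp73+/+ array.

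Between genotypes 4 of the 13 other sterol genes were higher and 0 lower untreated, and 3 higher and 1 lower at 4 h and at 8 h. Of the 24 others 7 were higher and 3 lower untreated, 7 higher and 4 lower at 4 h, and 6 higher and 5 lower at 8 h. Of all genes 18% to 18.5% were higher and 18% to 20.4% lower at these times. Whether the counts of these short lists differ from those shares was not tested. Npc2, a cholesterol carrier of lysosomes, was higher by 1.02 ± 0.14, 1.26 ± 0.14 and 0.88 ± 0.14. Ch25h, cholesterol hydroxylase, was detected on both TAp73-/- arrays and on 0 of 2 TAp73+/+ arrays at each time, and was at least 1.49-fold, 1.43-fold and 1.45-fold higher, set against the lowest detected signal of the dim arrays (limma adjusted p = 0.000697, 0.00354 and 0.00151). Idh1, a cytosolic source of NADPH, was higher by 0.90 ± 0.12, 0.70 ± 0.12 and 0.89 ± 0.12. Fads3, a relative of the desaturases above, was lower at all 3 times (-0.80 ± 0.14 untreated and -1.44 ± 0.14 at 8 h), as was Dgat2, a triglyceride synthase (-0.81 ± 0.17, -0.95 ± 0.17 and -0.95 ± 0.17). Hacd1, a dehydratase of fatty acid elongation, was lower at 4 h (-0.44 ± 0.11) and 8 h (-0.66 ± 0.11), Hacd2, its relative, untreated (-0.58 ± 0.16), and Pgrmc1, a haem-binding membrane protein, was higher at 4 h (0.77 ± 0.19).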

How the data were processed

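The 12 Illumina arrays were analysed. The deposited, non-normalised table holds raw probe intensity and a detection p-value per probe and array, per the file headers, and a second deposited table holds processed intensity on a linear scale that keeps each array's probe ranks and has a median of 71.5, made with Partek per the submitters' processing notes. The arrays' processing beyond that is not given in the sources used here. Probes were named through the platform annotation (34885 with 1 symbol, 34807 matched to GRCm38.p6). With R 4.3.3 and limma 3.58.1, neqc (normexp with detection p-values, offset 16, quantile, log2) was applied, and a probe was kept where some group had both its arrays detected at p below 0.05, with the probe of highest mean for each gene. Group means were fitted by lmFit and eBayes (6 residual and 4.79 prior degrees of freedom) with 12 contrasts and Benjamini-Hochberg adjustment over 10873 genes, and a gene was called at adjusted p below 0.05. The fit was tested on simulated data. The members, gene lists, markers and tests were chosen with earlier results of these data known. Named genes are the called members, up to 2 more per role by size of change, and up to 3 called genes each way per comparison among the other pathway genes. Alternatives were a replicate block, no background subtraction, the submitters' values, no filter, the mean of a gene's probes, the probe score, each array left out and adjusted p below 0.01.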

Additional observations from a re-analysis of the deposited data

Results flagged for a closer look

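Lpin1 differed between genotypes in its 8 h hypoxia response by a test of the difference itself, with 1.32 ± 0.11 in TAp73-/- cells and 0.42 ± 0.11 in TAp73+/+ cells, a difference of 0.90 ± 0.15 (limma adjusted p = 0.0392). Both TAp73-/- arrays at 8 h, at 7.54 and 7.41, were above both TAp73+/+ arrays, at 6.15 and 6.23. With the replicate block the difference was no longer called (adjusted p = 0.0609), nor with the mean of its probes (0.0763) or the probe score as a covariate (0.101). Over the arrays left out in turn the difference ran from 0.38 to 0.99 and the adjusted p from 0.0465 to 0.5. It was 0.38 without the second 8 h TAp73+/+ array, 0.51 and 0.58 without the first and second 8 h TAp73-/- arrays, and 0.54 without either 4 h TAp73+/+ array. Of the 12 such fits 3 kept the call. The groups of 2 arrays were too small to test single arrays as outliers.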

How the results depend on the processing

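Of the 105 called member values, 102 kept their call with the replicate block, 98 without background subtraction, 98 with the submitters' values, 99 without a filter on dim probes, 96 with the mean of a gene's probes, 63 at adjusted p below 0.01 and 17 with the probe score as a covariate, where 7 reversed. Replicate numbers did not pair the samples: the differences between same-numbered arrays correlated at -0.25 to 0.125 over 15 pairs of groups. With the replicate block the counts of called members were 2, 7 and 2 (4 h, 8 h, 8 h against 4 h) in TAp73-/- cells, 13, 11 and 4 in TAp73+/+ cells, 16, 15, 14 and 23 between genotypes (untreated, 4 h, 8 h, average) and 0 and 0 for the differences in response. Without background subtraction, and with the submitters' values, the counts were 5 and 8 for 8 h against 4 h in TAp73-/- and TAp73+/+ cells and 1 and 1 for the differences in response. The mean of a gene's probes gave 4 at 4 h and 4 for 8 h against 4 h in TAp73-/- cells. The probe score gave 0 at 4 h and 0 for 8 h against 4 h in both genotypes, 3 at 8 h in TAp73+/+ cells, and 0, 7, 1 and 2 between genotypes, with median standard errors of up to 0.39 against 0.13, so fewer calls follow in part from the fit itself. At adjusted p below 0.01 the counts were 1, 2 and 0 in TAp73-/- cells, 4 and 0 at 8 h and for 8 h against 4 h in TAp73+/+ cells, and 9 and 8 between genotypes untreated and at 8 h. With arrays left out in turn the counts ran from 1 to 3, 2 to 8 and 0 to 6 in TAp73-/- cells, 7 to 14, 3 to 12 and 0 to 10 in TAp73+/+ cells, 9 to 16, 9 to 16, 7 to 16 and 19 to 23 between genotypes, and 0 to 0 for both differences in response. These reversed, and the cause was not tested. With the probe score Insig1 changed by 0.27 and Cyp27a1 by 0.076 at 4 h in TAp73+/+ cells, Nsdhl differed by -0.27 and Hacd2 by 0.085 between untreated genotypes, Cyp51 by -0.24 at 8 h, and on average Cyp51 by -0.47, Nsdhl by -0.29, Srebf2 by 0.26 and Elovl5 by 0.0257. With the mean of probes Tecr changed by -0.10 at 4 h and Sqle by 0.47 at 8 h in TAp73+/+ cells, and Elovl6 differed between genotypes by 0.001 at 8 h and 0.29 on average. Signal over background limits dim genes such as Fads2, which was detected on 11 of 12 arrays.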
